A study of Mus musculus with 6 samples.

Results

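The light chains of myosin and the kinases that phosphorylate them were examined in mouse quadriceps, a thigh muscle of mainly fast fibres. The members were 9 genes chosen by symbol, of 18193 with a probe set of their own: the light chains Myl1, Myl2, Myl3, Myl4, Myl6, Myl6b and Mylpf and the kinases Mylk2 and Mylk. All probe sets that the platform annotation gives to exactly 1 of these genes were taken, which made 14 of the 45037 probe sets left without the control probe sets. A further 2 probe sets list Myl6 together with predicted genes and were not used. Arrays came from 3 wild-type and 3 ERRγ transgenic male mice of strain C57/BL6 at 8 weeks of age. In the transgenic group, labelled hSkeletal Actin -ERRg, the orphan nuclear receptor ERRγ (gene Esrrg) is expressed from an α-skeletal actin promoter, so the transgene is made in muscle fibres, while the sample also held vessels, fat and connective tissue. Whether the transgenic mice descend from more than a single founder is not given in the sources used here. RNA came from whole muscle, so a change in the share of a fibre or cell type and a change in RNA per cell cannot be told apart.

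Each myosin head binds an essential and a regulatory light chain, which stiffen the lever arm of the motor. Fast fibres use Myl1 as essential and Mylpf as regulatory light chain, while slow fibres and the heart ventricle use Myl3 and Myl2. Calmodulin-bound Mylk2 phosphorylates the regulatory light chain of skeletal fibres, which increases force at submaximal calcium, and Mylk does so in smooth muscle and many other cells, where phosphorylation switches the motor on. A phosphatase made of a protein phosphatase 1 catalytic subunit and a myosin-targeting subunit removes the phosphate.

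The values are MAS5 signals, linear intensities that the authors had scaled by array, and every difference below is transgenic minus wild-type on the log2(signal + 16) scale unless it is called a signal. Signals of different probe sets are not comparable with each other as transcript levels. The test covered the 26995 probe sets with a mean signal above 37.8. The brightest Esrrg probe set ran from 24.1 to 71.6 in wild-type and from 12697 to 14427 in transgenic arrays, so the arrays match their labels. The other Esrrg probe sets did not pass (limma adjusted p = 0.284 and 0.443). Median signals were 52.1 to 56.1 in wild-type and 57.0 to 61.8 in transgenic arrays. Scaling every array to a common median over all probe sets moved the median difference of the tested probe sets by -0.14, and the share of calls that were higher in transgenic muscle went from 55.2% to 28.8% (43.3% with the median taken over the tested probe sets). The skeletal fibre markers Acta1, Ckm, Ttn, Neb and Des were bright on all arrays, with summed signals of 62796 to 82635 in wild-type and 73080 to 78316 in transgenic muscle. The 7 heart muscle markers, Nppa and Tnni3 among them, had no signal above 70.5 on any array at their brightest probe sets.

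The slow light chain Myl2 rose in transgenic muscle, as did Myl3 at 2 of its 3 probe sets, the skeletal muscle kinase Mylk2 fell, and the fast light chains Myl1 and Mylpf gave signals that overlapped between the genotypes. Of the 14 probe sets, 12 were above the filter and came from 8 genes. By limma, 4 of the 12 were higher in transgenic muscle (Myl2, 2 of the 3 for Myl3, and 1 for Mylk), where 6.38% of all tested probe sets were, and 1 (Mylk2) was lower, where 5.16% of all were. The remaining 7 did not pass. The genotypes did not overlap at 9 of the 12, against 31.0% of all tested probe sets. The dimmest Myl3 probe set was above the filter only through the transgenic arrays, so these counts are a description. With the brightest probe set standing for each gene, 1 of 8 members was higher (Myl2) and 1 was lower (Mylk2), against 7.65% and 5.75% of the 12529 genes tested, because the brightest probe sets of Myl3 and Mylk did not pass.

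**Figure D1:**
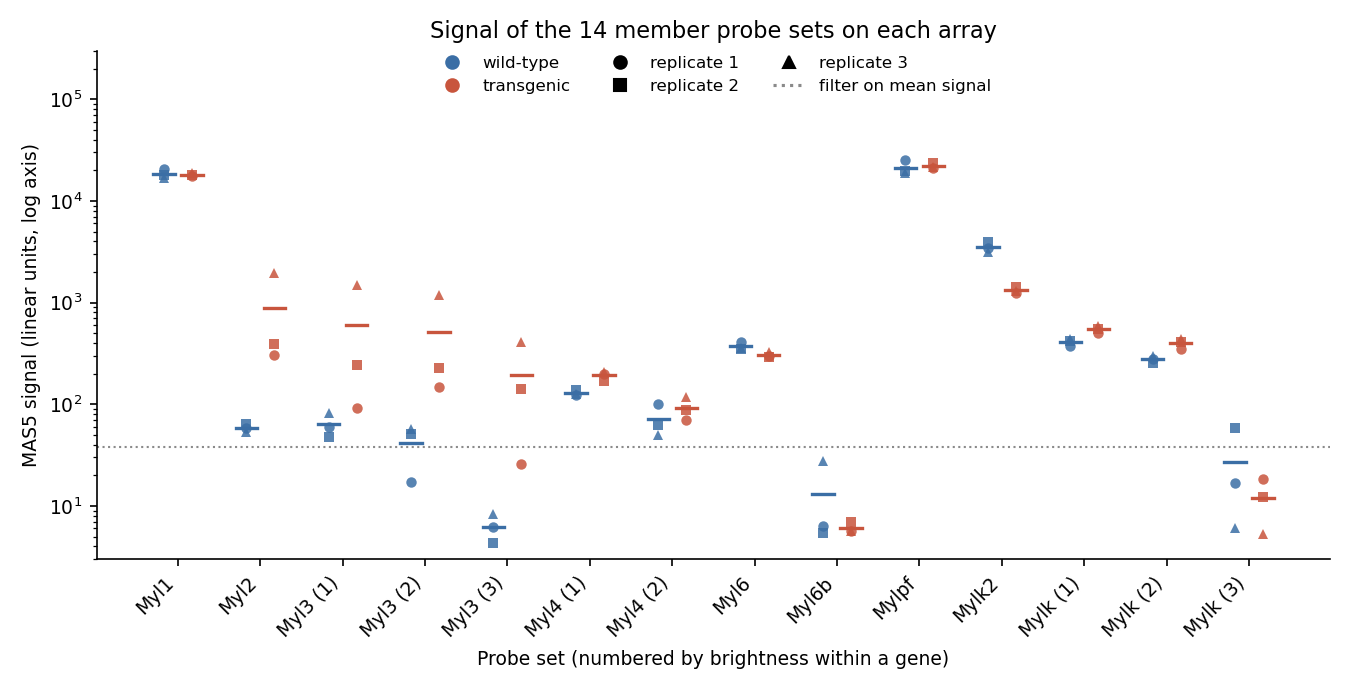
Signal (linear MAS5 units, log axis) of each of the 14 member probe sets on each array, with bars for the mean of 3 arrays and a dotted line at the filter of 37.8; probe sets of a gene are numbered from the brightest. Transgenic points lie above all wild-type points for Myl2 and for the 3 probe sets of Myl3, with transgenic replicate 3 highest, and below them for Mylk2.

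Myl2, the slow and ventricular regulatory light chain, went from a wild-type signal of 57.8, 63.6 and 53.1 to 302.8, 395.7 and 1954 in transgenic muscle (probe set 1448394_at). The wild-type arrays lay close together and every transgenic array was above them, with transgenic replicate 3 far above the others. The difference was 3.11 (SE 0.52, limma adjusted p = 0.00366, 95% interval 1.95 to 4.26). Without transgenic replicate 3 it was 2.29 (limma adjusted p = 0.000447), and with robust eBayes the call was lost (limma adjusted p = 0.0630).

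Myl3, the slow and ventricular essential light chain, was read by 3 probe sets that all ranked the arrays of the transgenic group in the same order. The brightest (1427768_s_at, a suffix for probes shared between related transcripts) read 59.7, 48.0 and 81.9 on the wild-type arrays and 91.1, 243.0 and 1478 on the transgenic ones. Its difference, 2.15 (SE 0.71), missed the threshold (limma adjusted p = 0.0796). The next (1428266_at) went from 17.2, 51.5 and 56.9 to 146.6, 225.4 and 1186 and rose by 2.72 (SE 0.61, limma adjusted p = 0.0158). The dimmest (1427769_x_at, a suffix for probes that may cross-hybridise) went from 6.2, 4.3 and 8.3, below the added 16 units, to 26.0, 142.5 and 412.1 and rose by 2.67 (SE 0.66, limma adjusted p = 0.0255). It was above the filter only through the transgenic arrays, so its tests here are given as a description. Each of the 3 probe sets separated the genotypes without overlap, and transgenic replicate 1 was the lowest and replicate 3 the highest of its group in all 3. Leaving out transgenic replicate 3 gave differences of 1.09, 1.86 and 1.88 in this order, with limma adjusted p = 0.101, 0.0163 and 0.0986, and leaving out transgenic replicate 1 gave limma adjusted p = 0.0168, 0.0122 and 0.00211. The call at 1428266_at was lost without wild-type replicate 1 (limma adjusted p = 0.0671), without the intensity trend (0.0757) and with robust eBayes (0.122). That at 1427769_x_at was lost without wild-type replicate 1, wild-type replicate 2 or transgenic replicate 2, at limma adjusted p = 0.0709, 0.0671 and 0.0917, and also with no filter (0.0578) and without the intensity trend (0.0828).

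Other slow-fibre genes were also uneven among the transgenic arrays, though not all. Of 13 slow genes tested (Myl2, Myl3, Myh7 and a list of 10 partners), 9 were highest in transgenic replicate 3 among the transgenic arrays. Apart from Myl2 and Myl3 these were Myh7, Tnnt1, Tnni1, Tnnc1, Atp2a2, Casq2 and Myoz2. Tpm3, Pln, Csrp3 and Ankrd2 were highest in transgenic replicate 2. Over all 13, the median excess of transgenic replicate 3 over the other transgenic arrays was 1.26 on the log2 scale. That median takes in Myl2 (2.44) and Myl3 (3.16), which raised the question. Among the other genes highest in transgenic replicate 3 the excess ran from 0.30 (Casq2) to 3.64 (Myh7). The share of all tested genes highest in that array was not counted. Myh7, Tnnt1 and Tnni1 were above the filter only through the transgenic arrays, so the count and median are a description. Of 12 fast genes, 1 (Myl1) was highest in transgenic replicate 3, and the median excess was -0.09. Myh7, the slow myosin heavy chain that carries these light chains, stood at 5.4, 9.6 and 9.7 on wild-type arrays against 21.4, 129.1 and 900.8 on transgenic arrays and did not pass (difference 2.82, SE 0.86, limma adjusted p = 0.0606). Without transgenic replicate 1 it passed (limma adjusted p = 0.00777), as it did with 1 in place of 16 added to the signal (0.0420), and without transgenic replicate 3 the difference was 1.61 (limma adjusted p = 0.150). Tnnt1, slow troponin T, went from 19.6, 17.6 and 4.5 to 58.6, 102.0 and 464.9 and rose by 2.48 (SE 0.57, limma adjusted p = 0.0187, and 0.0722 without the intensity trend). Tnnt1 and Myh7 were above the filter only through the transgenic arrays, so their tests are given as a description. For Tnnc1, the slow and cardiac troponin C, transgenic replicate 3 at 846.3 stood alone, with 110.5 and 141.2 in the other transgenic and 92.1 to 140.3 in the wild-type arrays. Whether transgenic replicate 3 held more slow-fibre tissue, or its fibres more slow-fibre RNA, was not tested.

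**Figure D2:**
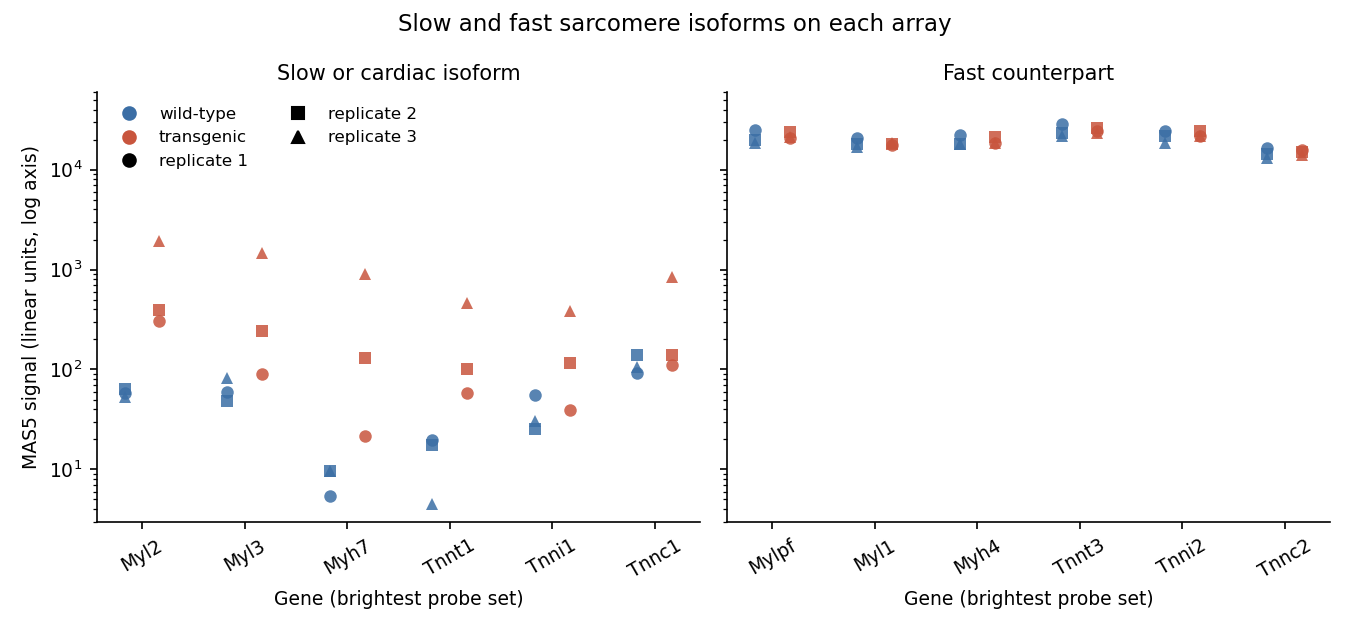
Signal (linear MAS5 units, log axis) on each array of slow or cardiac sarcomere genes (left) and their fast counterparts (right), brightest probe set of each gene. The 6 slow genes drawn spread widely over the transgenic arrays with replicate 3 highest. Tnni1 and Tnnc1 among them overlap between genotypes, as do the 6 fast genes. Tpm3, Pln, Csrp3 and Ankrd2, slow genes highest in transgenic replicate 2, are not drawn.

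The promoter windows of both slow light chains are shown beside those of both fast ones, because they are the slow and fast forms of the same subunits. Each is the 250 bases before a transcript start in RefSeq, assembly GRCm38.p6, 5′ to 3′, with E-boxes (CANNTG, the letters that myogenic regulators bind) in capitals. The windows lie at chr5:122092474-122092723 (plus strand) for Myl2, chr9:110763428-110763677 (plus) for Myl3, chr7:127211358-127211607 (plus) for Mylpf and chr1:66945057-66945306 (minus) for Myl1. For Myl2 a further start is listed, and the arrays do not show which start was used.
Myl2: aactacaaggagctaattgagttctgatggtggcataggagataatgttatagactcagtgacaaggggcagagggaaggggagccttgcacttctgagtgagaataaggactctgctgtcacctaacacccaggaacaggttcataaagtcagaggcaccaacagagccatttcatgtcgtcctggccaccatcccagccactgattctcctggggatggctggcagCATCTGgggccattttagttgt
Myl3: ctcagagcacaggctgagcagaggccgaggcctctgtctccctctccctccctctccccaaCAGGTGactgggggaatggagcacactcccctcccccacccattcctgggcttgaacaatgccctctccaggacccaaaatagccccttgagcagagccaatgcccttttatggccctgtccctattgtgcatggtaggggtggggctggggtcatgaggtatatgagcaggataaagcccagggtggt
Mylpf: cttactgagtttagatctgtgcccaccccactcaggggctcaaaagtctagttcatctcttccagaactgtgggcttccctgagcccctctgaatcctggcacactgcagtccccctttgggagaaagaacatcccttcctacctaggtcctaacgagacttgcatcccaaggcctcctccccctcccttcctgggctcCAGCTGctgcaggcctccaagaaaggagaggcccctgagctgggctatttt
Myl1: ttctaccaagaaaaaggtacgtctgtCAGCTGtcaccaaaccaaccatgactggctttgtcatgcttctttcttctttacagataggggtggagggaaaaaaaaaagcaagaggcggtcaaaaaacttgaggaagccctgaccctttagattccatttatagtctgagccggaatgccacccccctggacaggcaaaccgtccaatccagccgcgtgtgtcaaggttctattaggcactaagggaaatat
The E-box begins 22 bases before the start in Myl2, 189 in Myl3, 51 in Mylpf and 224 in Myl1. Windows were listed for 8 of the 9 members, 10 windows in all. An E-box was found in 7 of these, against 66.2% of all 32851 windows of the same length, so the members' share was near that of windows in general. The ERR element TNAAGGTCA, searched on both strands, was in 0 of the 10 windows and in 1.14% of all windows. The shorter AAGGTCA, which lies inside it, was in 0 and in 4.08%. A MEF2 motif was in 0 of the 10 and 2.92% of all, and a CArG box, the letters bound by serum response factor, in 2 of the 10 (Myl3 and 1 window of Myl6) and 1.47% of all. The MEF2 and CArG searches were added after the sequences were seen, and the letters they searched for are not given here. An absent match says only that the letters searched for are not in these windows.

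The fast light chains gave some of the brightest signals on the arrays, at rank 3 (Mylpf) and rank 14 (Myl1) among 45037 probe sets by mean signal. Mylpf, the fast regulatory light chain (1448371_at), had wild-type signals of 25228, 19855 and 18714 and transgenic signals of 20978, 23852 and 21401. The transgenic arrays lay inside the wild-type range. The difference of 0.064 (SE 0.12, 95% interval -0.20 to 0.32) did not pass (limma adjusted p = 0.782), and its sign turned to -0.089 with median scaling over all probe sets. Myl1, the fast essential light chain (1452651_a_at), had wild-type signals of 20663, 17928 and 16902 and transgenic signals of 17769, 17931 and 18700. Again the transgenic arrays lay inside the wild-type range, and the difference of -0.024 (SE 0.095, 95% interval -0.23 to 0.19) did not pass (limma adjusted p = 0.906). Myl1 gives rise to a long and a short protein from separate starts, which this probe set was not shown to tell apart. Saturation of such bright probe sets was not tested.

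Within each array the slow light chain was set against its fast counterpart, in log2(signal + 16), where an array's own scale largely cancels. Myl2 minus Mylpf was -8.42, -7.96 and -8.08 on the wild-type arrays and -6.04, -5.86 and -3.44 on the transgenic ones. It was higher in every transgenic array, by 3.04 between group means. Myl3 minus Myl1 was -8.09, -8.13 and -7.43 on the wild-type arrays and -7.38, -6.11 and -3.65 on the transgenic ones, higher by 2.17, with transgenic replicate 1 just above wild-type replicate 3. Exact two-sided permutation tests gave p = 0.1 for each, the smallest that 3 arrays against 3 allow. Without transgenic replicate 3 the differences were 2.21 and 1.14. These values show unequal change and not the proportion of slow to fast protein or transcript.

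Myl4, the essential light chain of embryonic muscle and the atrium, showed wild-type signals of 123.1, 137.2 and 127.1 and transgenic signals of 198.7, 169.1 and 208.8 (1422580_at). The genotypes did not overlap, yet the difference of 0.52 (SE 0.15) lay at the edge of the test (limma adjusted p = 0.0502, and 0.0362 to 0.163 over all settings run). Its dimmer probe set (1457126_at) ran from 49.8 to 101.2 in wild-type and 69.9 to 116.9 in transgenic arrays, overlapped, and did not pass (limma adjusted p = 0.477). Of 6 markers of immature or regenerating fibres, Myh8, the perinatal myosin heavy chain, fell by 1.76 (SE 0.26, limma adjusted p = 0.00160), 0 rose and the other 5 did not pass. Over all genes tested, 5.75% were lower. Summed signals of the 6 markers were 704.3 to 954.7 in wild-type and 509.9 to 648.4 in transgenic arrays. Embryonic Myh3 had a difference of -0.072.

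Myl6, the essential light chain of smooth muscle and nonmuscle myosin, had wild-type signals of 408.5, 353.3 and 354.3 and transgenic signals of 298.3, 289.7 and 324.2 (1435041_at). All transgenic arrays were below all wild-type arrays, but the difference of -0.28 (SE 0.13) did not pass (limma adjusted p = 0.197). Its neighbour in the genome, Myl6b, an essential light chain of slow and nonmuscle myosin, had signals of 5.4 to 27.6 in wild-type and 5.6 to 7.0 in transgenic arrays (1430661_at) and lay under the filter. Only wild-type replicate 3 stood above 7.0, so no difference is given.

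**Figure D3:**
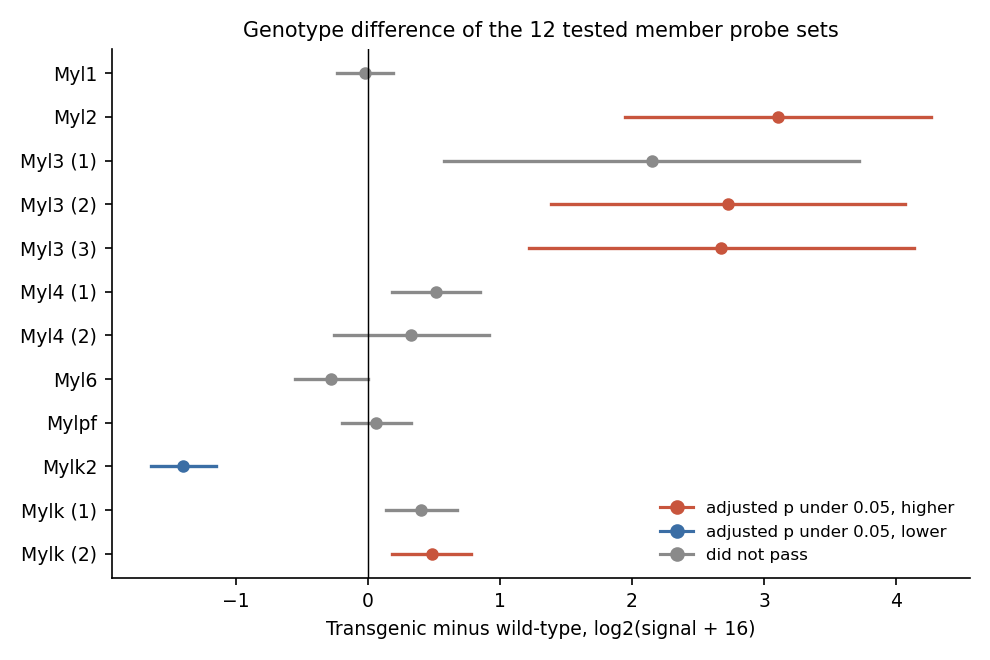
Transgenic minus wild-type difference in log2(signal + 16) with its 95% interval from limma for the 12 tested member probe sets, coloured by whether the adjusted p over all tested probe sets was under 0.05. Myl2 and 2 of the Myl3 probe sets lie far to the right with wide intervals, Mylk2 lies to the left with a narrow one, and Myl1 and Mylpf lie at 0.

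Among the kinases, Mylk2 differed most plainly between the genotypes. Its wild-type signals were 3437, 3963 and 3148 and its transgenic signals 1246, 1410 and 1305 (1427556_at). The groups lay far apart and the transgenic arrays lay close together. The mean signal was 3516 ± 412.9 (SD, n = 3) and 1320 ± 82.8 (SD, n = 3), a ratio of 2.66, and the difference was -1.40 (SE 0.11, limma adjusted p = 4.25e-05, 95% interval -1.64 to -1.15). It passed in 19 of 19 settings, this one included, at limma adjusted p between 1.77e-05 and 0.00480 and differences between -1.55 and -1.31. In size it was number 70 among the 721 genes that were lower.

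Mylk, which gives the smooth muscle and nonmuscle kinase, had an opposite sign to Mylk2. The brightest probe set (1425506_at) read 370.1, 419.1 and 439.9 on wild-type and 503.4, 553.0 and 587.0 on transgenic arrays, and its difference of 0.41 (SE 0.12) missed the threshold (limma adjusted p = 0.0584). The next (1425505_at) went from 281.6, 256.5 and 297.5 to 345.8, 404.9 and 441.2 and rose by 0.48 (SE 0.14, limma adjusted p = 0.0436). The call was lost with median scaling over all probe sets (0.34, limma adjusted p = 0.179) or over the tested ones (0.0679), with no filter (0.0587), without the intensity trend (0.0979), and when any 1 of wild-type replicates 1 and 2 or transgenic replicates 2 and 3 was left out, at limma adjusted p between 0.107 and 0.149. The dimmest (1425504_at), at 6.0 to 58.2 in wild-type and 5.3 to 18.2 in transgenic arrays, lay under the filter. Mylk2 minus Mylk within an array, on the same log2 scale, was 3.16, 3.19 and 2.80 on the wild-type arrays and 1.28, 1.33 and 1.13 on the transgenic ones, lower by 1.80 between group means (exact two-sided permutation p = 0.1, the smallest possible). Mylk is expressed outside fibres, and markers of other cells are given here for that reason. Endothelial markers rose at 5 of 6 genes (Pecam1, Cdh5, Kdr, Emcn and Esam, with Tek not passing), against 7.65% of all genes tested. Cdh5 passed at 1 of its 2 tested probe sets. Summed endothelial signals were 1789 to 1923 in wild-type and 3254 to 3592 in transgenic arrays. Of 7 smooth muscle markers, 4 were tested and 0 passed by limma, with 2 at an unadjusted p under 0.05 (Myh11, at 0.62, had limma adjusted p = 0.103), while Cnn1 (4.9 to 12.5 in wild-type and 40.6 to 47.9 in transgenic arrays), Lmod1 and Myocd lay under the filter. The summed smooth muscle signal was 2004 to 2742 and 2602 to 3258, which overlap. Their part in the Mylk difference was not tested.

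Of 10 other kinases that can act on regulatory light chains, 7 were tested. Rock2 and Pak1 had no single-gene probe set, and Cdc42bpb lay under the filter. Dapk2, a calmodulin-regulated death-associated kinase, rose from 229.6, 192.7 and 128.1 to 382.0, 333.3 and 319.7 (0.89, SE 0.19, limma adjusted p = 0.0139). Among the 7, 0 fell and the other 6 missed the threshold. The median of the 7 tested kinases was 0.0022, beside 0.033 over all genes tested, of which 7.65% were higher and 5.75% lower. The Dapk2 call was lost without transgenic replicate 1 (limma adjusted p = 0.0642) and without the intensity trend (0.0584). Mylk4, a kinase of the same family as Mylk2 and chosen here after its values were seen, had wild-type signals of 8259, 9809 and 6387 and transgenic signals of 6541, 8044 and 7830, which overlap (-0.11, SE 0.15, limma adjusted p = 0.696).

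Among 11 genes of the light chain phosphatase and its inhibitors, 2 were higher, 2 were lower and 7 missed the threshold. Over all genes tested, 7.65% were higher and 5.75% lower. The median of the 11 was -0.013. Smtnl1, a calponin-like protein that binds the myosin-targeting subunit, went from 116.5, 204.0 and 117.8 to 805.3, 454.7 and 518.8 and rose by 1.91 (SE 0.24, limma adjusted p = 0.000745). Ppp1r12b, the targeting subunit of striated muscle, went from 1114, 1302 and 895.8 to 1737, 1429 and 1739 and rose by 0.57 (SE 0.14, limma adjusted p = 0.0288), as did 1 more of its 4 probe sets. That call was lost with median scaling over all probe sets (limma adjusted p = 0.111), with no filter (0.0507), without the intensity trend (0.109), and without wild-type replicate 1, wild-type replicate 3, transgenic replicate 1 or transgenic replicate 3, at 0.0514 to 0.110. A pair of phosphatase inhibitors fell: Ppp1r14b from 1738, 1860 and 1594 to 883.6, 1110 and 1044 (-0.77, SE 0.12, limma adjusted p = 0.00208), and Ppp1r14c from 2666, 2694 and 2756 to 1964, 1741 and 1547 (-0.63, SE 0.11, limma adjusted p = 0.00388). Averaged with its dim second probe set, Ppp1r14b did not pass (-0.33, limma adjusted p = 0.200). Ppp1r14a, an inhibitor of smooth muscle, did not pass (0.52, limma adjusted p = 0.248), and neither did the catalytic subunits Ppp1ca, Ppp1cb and Ppp1cc. Ppp1r12b and Ppp1r14c were named after their values were seen. The 3 calmodulin genes had no single-gene probe set in the annotation and are not analysed here.

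**Figure D4:**
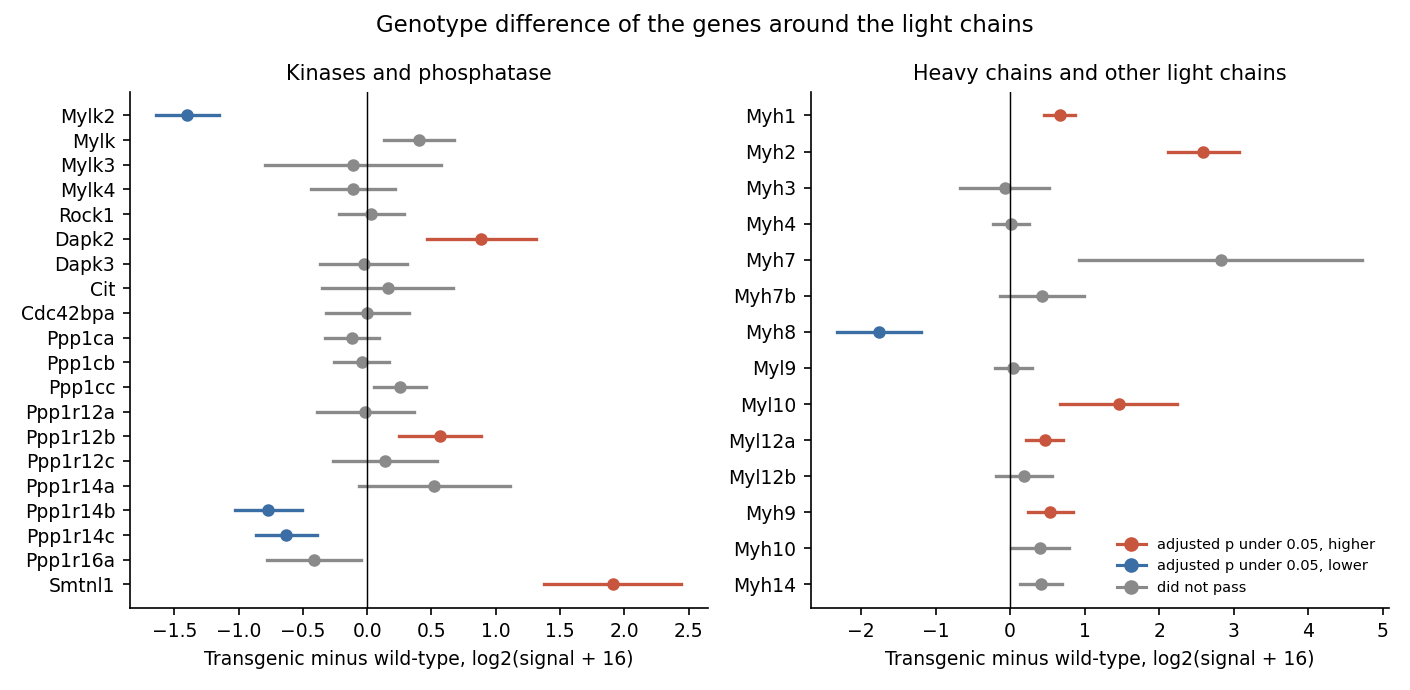
Transgenic minus wild-type difference in log2(signal + 16) with its 95% interval from limma for the kinases and phosphatase genes (left) and for heavy chains and other light chains (right), brightest probe set of each gene. Among the genes that passed, Mylk2, Ppp1r14b, Ppp1r14c and Myh8 lie left of 0, and Smtnl1 and Myh2 lie farthest right in their panels.

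Among 7 sarcomeric heavy chains tested, Myh2 and Myh1 rose, Myh8 fell and 4 missed the threshold, where 7.65% of all genes tested were higher and 5.75% lower. The median of the 7 was 0.42. Myh7, with the largest difference of the 7 (2.82), was above the filter only through the transgenic arrays. The count and median of the heavy chains are therefore a description. Myh2, of fast oxidative fibres, went from 1023, 2084 and 1796 to 8593, 9922 and 10116 (2.59, SE 0.21, limma adjusted p = 5.68e-05). Myh1, of intermediate fast fibres and named after its values were seen, rose by 0.67 (SE 0.093, limma adjusted p = 0.00129). Among light chains outside the members, Myl10 rose from 9.2, 53.5 and 44.4 to 112.1, 122.1 and 106.9 (1.45, SE 0.35, limma adjusted p = 0.0238), above the filter only through the transgenic arrays, and the call was lost without any 1 of the transgenic arrays (limma adjusted p = 0.0657 to 0.0833), with no filter (0.0619) and without the intensity trend (0.0648). Myl12a, a regulatory light chain of nonmuscle myosin, rose from 2925, 3027 and 2991 to 4178, 3548 and 4702 (0.46, SE 0.11, limma adjusted p = 0.0229), and the call was lost with median scaling over all probe sets (limma adjusted p = 0.150), with no filter (0.0520), without the intensity trend (0.110), and without wild-type replicate 1, wild-type replicate 2, transgenic replicate 1 or transgenic replicate 3 (limma adjusted p = 0.0688 to 0.0850). Myl9, the smooth muscle regulatory light chain, was at 806.6 to 862.3 in wild-type and 806.7 to 954.3 in transgenic arrays and did not pass (0.042, limma adjusted p = 0.854). Of 3 nonmuscle heavy chains, Myh9 rose by 0.54 (SE 0.14, limma adjusted p = 0.0296) at its brightest probe set and at 3 of 5 probe sets in all. The call at the brightest was lost with median scaling over all probe sets (limma adjusted p = 0.130), with no filter (0.0503), without the intensity trend (0.110), with all its probe sets averaged (0.0873), and without wild-type replicate 1, wild-type replicate 2, transgenic replicate 1 or transgenic replicate 3 (limma adjusted p = 0.0840 to 0.113).

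Of 10 slow-fibre partners, 5 passed, all higher (Ankrd2, Csrp3, Tnnt1, Casq2 and Myoz2, the last 2 named after their values were seen, and Myoz2 at limma adjusted p = 0.0519 without the intensity trend), and the median was 1.65. Over all genes tested, 7.65% were higher. Tnnt1 and Tnni1 were above the filter only through the transgenic arrays, so the count and median of the slow-fibre partners are a description. The largest were Ankrd2 (3.26, SE 0.26) and Csrp3 (2.97, SE 0.27), stretch-responsive sarcomere proteins, with limma adjusted p = 4.70e-05 and 0.000107 (0.000804 and 0.00110 without transgenic replicate 3). Of 9 fast-fibre partners, 0 passed by limma at the brightest probe set (2 at an unadjusted p under 0.05), and the median was 0.015. With median scaling over all probe sets and with quantile normalization 2 of them passed as lower, and 1 did without wild-type replicate 3 or with all probe sets of a gene averaged. In the main test, dimmer probe sets of Tnni2 (1 of 3 tested) and Tpm1 (1 of 4 tested) passed as lower. Casq1, the fast calsequestrin, had a difference of -0.24 (limma adjusted p = 0.147) and Actn3, fast α-actinin, of -0.22 (limma adjusted p = 0.175).

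Likeness to each member was measured over the 6 arrays as the root mean square difference of log2(signal + 16) after each gene was centred on its own mean, among the brightest probe sets of tested genes. The genes most like Myl2 were Tnnt1 (0.39), Myh7 (0.63) and Myl3 (0.64). Those most like Myl3 were Myh7 (0.46), Tnni1 (0.55) and Tnnt1 (0.55), all slow-fibre sarcomere genes with transgenic replicate 3 highest. Since the measure takes in all 6 arrays, a shared high in transgenic replicate 3 is part of the likeness and no separate result. Myh7, Tnni1 and Tnnt1 were above the filter only through the transgenic arrays. Mylk2 was most like Gclm, a subunit of glutathione synthesis (0.066), Piezo1, a mechanically gated channel (0.10), and Ppp1r3c, a glycogen-targeting subunit of protein phosphatase 1 (0.11). Gclm went from 744.3, 826.3 and 627.9 to 256.2, 296.7 and 296.9. Mylk was most like Mrps36 (0.038), Opa1 (0.042) and Pde2a (0.044). Mylpf was most like Tnnt3, fast troponin T (0.042), Dido1 (0.043) and Myh4, the fast glycolytic heavy chain (0.044). These are descriptions of 6 arrays that share genotype and scaling, with no test.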

How the data were processed

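Total RNA of quadriceps muscle from 3 wild-type and 3 transgenic mice was labelled with biotin as cRNA and hybridised to 1-colour Affymetrix arrays, per the labels' protocols. The deposited intensity values are MAS5 signals on a linear scale, per the submitters' processing notes (version and settings not given in the sources used here). Their mean after leaving out the highest and lowest 2% of probe sets was 200.0 on every array. Detection calls and scanner files are not used here. The 64 control probe sets among the 45101 were dropped.

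Signals were transformed as log2(signal + 16), which understates changes of dim probe sets. Probe sets above the 40th percentile of mean signal were tested with limma 3.58.1 in R 4.3.3 (lmFit, eBayes with an intensity trend, all 6 arrays, no covariates), with p-values adjusted by Benjamini-Hochberg across the 26995 probe sets and a threshold of 0.05. Gene names came from the platform annotation, where 34945 probe sets have 1 gene, 932 several and 9160 none. Of the former, 34741 matched the table of assembly GRCm38.p6 and 0 symbols changed. Where 1 probe set stood for a gene it was the brightest. Named genes are all members, per list the 2 genes that passed with the largest change (or, where none passed, with the smallest p), and the 3 genes most like a member. Any other gene of the lists named in the text was chosen after its values were seen. Members, lists and tests were chosen with earlier results of these data known. The test was tried on simulated data. Plots used matplotlib 3.10.9 in Python 3.11.15. The titles call the samples biological replicates, and the number of arrays limits the precision.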

Additional observations from a re-analysis of the deposited data

How the results depend on the processing

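There were 3 arrays a genotype. The count of changed probe sets was 3115, and 1584 without the intensity trend. It was 1705 to 3301 with an array left out, lowest without wild-type replicate 1. The count of member probe sets higher in transgenic muscle was 4, and it was 2 with no filter, 1 without the intensity trend and 2 with robust eBayes. It was 3 with median scaling, over all or over the tested probe sets. The count was 6 with a filter at the 60th percentile, 6 with limma array weights and 5 with 1 added to the signal. With an array left out it was 1 to 5 (1 without wild-type replicate 1, 2 without wild-type replicate 2, transgenic replicate 2 or transgenic replicate 3). The count lower was 1 under all alternatives. Over all pathway lists 13 genes were higher and 3 lower. Tnnt1 and Myl10, among the 13, were above the filter only through the transgenic arrays, so these counts are a description. Without the intensity trend 6 were higher, and with median scaling and with quantile normalization 5 were lower. The sign of Mylpf turned to -0.089 with median scaling, and its difference ran from -0.022 to 0.19 with an array left out. That of Myl1 ran from -0.086 to 0.059. Mylk2 minus Mylk was -1.54 with all probe sets of a gene averaged, which took in the Mylk probe set under the filter (1425504_at). The causes of these moves were not tested. Median scaling over the tested probe sets was chosen after seeing the data. Samples of the same replicate number showed little shared deviation (r of 0.07, -0.08 and -0.02), and those of unlike number ran from -0.09 to 0.11. With 3 arrays a genotype these values cannot settle whether the numbers pair samples. With the replicate block 2744 probe sets changed, the brightest Myl3 probe set (limma adjusted p = 0.0225) and Myh7 (0.0243) passed and Mylk 1425505_at did not (limma adjusted p = 0.0610).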

Other observations

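The genes most like the remaining light chains were measured in the same way, as root mean square differences over 6 arrays. Myl1 was nearest to Malsu1 (0.023), Zc3hc1 (0.025) and Faf1 (0.026), Myl4 to Larp7 (0.036), Mcc (0.042) and Plbd2 (0.046), and Myl6 to 9530068E07Rik (0.028), Krba1 (0.032) and Dennd4c (0.033). Other cell types in the muscle were also read. Leukocyte markers fell at 1 of 5 genes (Lyz2, a lysozyme, named after its values were seen) and rose at 0, where 5.75% of all genes tested were lower. Summed leukocyte signals were 2446 to 2693 in wild-type and 1681 to 2203 in transgenic arrays. Adipocyte markers passed at 0 of 4 genes by limma (0 at an unadjusted p under 0.05) and ran from 3097 to 11532 in wild-type, highest in wild-type replicate 3, and 1884 to 5500 in transgenic arrays. Fibroblast markers passed at 0 of 5 genes by limma (2 at an unadjusted p under 0.05). Of the Schwann cell markers, Mbp was the only gene with probe sets of its own. It did not pass at the brightest, while 1 of its 8 tested probe sets was higher.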
